A study of Homo sapiens with 2 samples.

Results

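The RAB GTPases are the largest family of small GTPases and direct the traffic of membranes between organelles. They were described here as all array rows whose gene symbol is RAB, a number and at most 1 further letter. The rule found 63 rows for 60 genes, of 45033 rows and 16583 named genes on the arrays. RNA came from A375, an established human melanoma cell line. In the shBMI-1 culture a lentiviral hairpin targeted BMI1, a subunit of the Polycomb complex PRC1, and the empty vector culture had received the lentivirus alone. Each group was 1 array, both cultures carried a lentivirus, and no clone, passage or time after infection is stated in the labels. No replicate error exists, no test between groups was possible, and every value below compares 2 single cultures.

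A RAB protein switches between a GTP-bound form, which sits on a membrane and recruits effector proteins, and a GDP-bound form, which is extracted into the cytosol. Guanine nucleotide exchange factors (GEFs) load GTP, GTPase-activating proteins (GAPs) end the active state, and RAB escort proteins with a geranylgeranyl transferase attach the lipid tail. In pigment cells RAB32 and RAB38 send pigment enzymes to the melanosome, and RAB27A ties the ripe melanosome to actin through melanophilin and myosin Va. Loss of RAB27A causes Griscelli syndrome, in which pigment stays in the cell centre.

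A brightness limit was set at the median of all rows, to be reached on at least 1 array. It was passed by 33 of the 60 RAB genes (55.0%), against 53.8% of all genes, and 27 RAB genes were under it. Ratios are log2 of the shBMI-1 intensity minus log2 of the empty vector intensity. The only spread that could be measured was that of the ratios of several rows of one gene, here called the row SD. It was widest for dim genes, 0.80 between intensities of 32 and 64. It was 0.60 between 128 and 256, and for genes brighter than 4096 it was 0.20. Each gene is read against the value for its own level. Among the RAB genes 57 had 1 row and 3 had 2 rows. Rows differ in their probes, so an intensity of one gene cannot be set against that of another, and only the 2 arrays are compared within a gene.

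The arrays were similar in median intensity, at 129.8 on the shBMI-1 array and 131.2 on the empty vector array. Their 75th percentiles were 565.0 and 548.7 in that order. For all genes above the limit the median log2 ratio was 0.09 as deposited and 0.02 after loess normalization. The row SD is taken within a gene and leaves out an offset that genes share. The silenced gene, BMI1, was at 25.8 with shBMI-1 and 68.6 with the empty vector, both under the brightness limit. That is 2.66-fold lower (log2 ratio -1.41, row SD 0.80). Of the melanocytic markers, SOX10 was bright, at 6889 with shBMI-1 and 7608 with the empty vector, and S100B was at 1452 and 1123 in the same order. The other 5 markers of pigment cells on the arrays (MITF, TYR, TYRP1, MLANA and PMEL) lay under the median of all rows on both arrays. All leukocyte, fibroblast and endothelial markers measured were under it as well (0 of 4 for each type). Their summed intensities with shBMI-1 and then with the empty vector were 138.3 and 100.5 for leukocytes, 199.1 and 267.7 for fibroblasts, and 79.7 and 162.9 for endothelium. The melanocytic sum, with 2 of 7 markers above the limit, was 8556 with shBMI-1 and 8876 with the empty vector. Of the 5 keratinocyte markers KRT14 and KRT5 were above it, KRT1, KRT10 and CDH1 were not, and their sum was 1460 with shBMI-1 and 1117 with the empty vector. KRT14 was at 875.5 with shBMI-1 and 655.9 with the empty vector. Whether cells of another type or a change in RNA per cell bear on any ratio was not tested, and in RNA of a whole culture the number of cells and the RNA per cell cannot be told apart.

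The promoters of the RAB27 pair, RAB31 and RAB32 are shown because RAB27B and RAB31 had the highest ratios of the family, while RAB27A and RAB32 are the pigment RABs with a promoter entry. The sequences are the 250 bases before an annotated start, 5′ to 3′ on the gene's strand, from RefSeq (GRCh38.p14), with each CpG in capitals. For RAB27A, which has several starts, the most upstream is given, and for RAB27B both.

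RAB27B upstream start, chr18:54717607-54717856, plus strand: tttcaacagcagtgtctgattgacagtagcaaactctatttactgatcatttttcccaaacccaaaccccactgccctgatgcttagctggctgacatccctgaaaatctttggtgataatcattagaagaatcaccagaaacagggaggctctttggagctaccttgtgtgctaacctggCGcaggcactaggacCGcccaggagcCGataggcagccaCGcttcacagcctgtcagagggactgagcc

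RAB27B downstream start, chr18:54828227-54828476, plus strand: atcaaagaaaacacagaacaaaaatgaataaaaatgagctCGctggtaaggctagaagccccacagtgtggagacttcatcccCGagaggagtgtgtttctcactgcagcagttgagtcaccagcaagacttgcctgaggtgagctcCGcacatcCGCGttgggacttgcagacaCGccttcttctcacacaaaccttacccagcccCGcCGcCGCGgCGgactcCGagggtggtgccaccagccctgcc

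RAB31, chr18:9708051-9708300, plus strand: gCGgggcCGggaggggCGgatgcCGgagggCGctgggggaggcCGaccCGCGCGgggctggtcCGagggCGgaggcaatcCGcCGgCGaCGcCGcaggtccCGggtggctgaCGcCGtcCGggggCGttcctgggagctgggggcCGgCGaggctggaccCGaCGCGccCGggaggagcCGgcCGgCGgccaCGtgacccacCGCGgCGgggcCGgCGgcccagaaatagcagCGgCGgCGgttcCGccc

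RAB27A, chr15:55319124-55319373, minus strand: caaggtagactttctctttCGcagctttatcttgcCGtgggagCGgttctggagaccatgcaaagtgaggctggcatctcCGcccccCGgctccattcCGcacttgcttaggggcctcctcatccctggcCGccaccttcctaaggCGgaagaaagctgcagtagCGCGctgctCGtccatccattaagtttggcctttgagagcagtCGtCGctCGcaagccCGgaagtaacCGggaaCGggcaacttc

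RAB32, chr6:146543583-146543832, plus strand: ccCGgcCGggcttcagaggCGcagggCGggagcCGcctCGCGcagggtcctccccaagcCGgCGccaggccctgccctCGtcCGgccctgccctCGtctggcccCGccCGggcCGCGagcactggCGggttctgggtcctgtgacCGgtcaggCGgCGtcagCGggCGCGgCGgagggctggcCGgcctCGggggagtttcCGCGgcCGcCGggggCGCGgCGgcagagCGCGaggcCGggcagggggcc

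The RAB27B windows hold 4 and 12 CpGs, the RAB31 window 40, the RAB27A window 17 and the RAB32 window 36. Among the windows printed, the genes with the highest ratios had the poorest and the richest. In 300 bases, the RAB27A starts not printed had 4, 1, 6 and 1 CpGs, and the RAB27B starts 6 and 17. The order of the genes thus depends on which starts are shown. Over the whole family, 48 of the 60 genes had a promoter entry, with 68 windows of 300 bases that run from 250 bases before to 50 after the start. Taking the window with most CpGs for each gene, RAB genes above the brightness limit had a median of 30 CpGs (27 genes) and those under it 23 (21 genes). Over all genes these medians were 28 and 19, so both classes of RAB genes lay slightly above them. The motif CACGTG, an E-box that reads the same on both strands, was in 6 RAB windows (8.82%), against 7.26% of all windows, those of RAB4A, RAB5A, RAB21, RAB24, RAB29 and RAB31. CATGTG or its reverse complement was in 3 (4.41%), against 11.1% of all windows, those of RAB3A, RAB9B and RAB17. These are matches of letters only. None of the RAB27A, RAB27B and RAB32 windows held either motif.

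As a family the RAB genes differed little between the cultures. Among the 33 above the limit, the median log2 ratio was 0.22, against 0.09 for all genes above it, and the central 50% lay between -0.06 and 0.35, against -0.17 to 0.32 for all genes. A ratio above 0 was found in 23 of the 33, or 69.7%, against 60.0% of all genes. At least 2-fold higher with shBMI-1 was 1 RAB gene, RAB27B, or 3.03%, against 3.23% of all genes above the limit. At least 2-fold lower was no RAB gene, against 3.55% of all genes. RAB27B passed the limit on the shBMI-1 array alone, so the filter itself depended on its difference. The same holds for 431 of the 605 genes past 2-fold in either direction. Of the 33 RAB genes 4 passed on 1 array only, against 1152 of all 8921 genes. They were RAB27B, RAB29 and RAB40B on the shBMI-1 array and RAB26 on the empty vector array. With the limit set on the mean of both arrays, RAB27B was again the 1 RAB gene 2-fold higher, of 31, against 1.89% of all genes. With no limit, 2 of 60 RAB genes were 2-fold higher (RAB27B and RAB31) and 2 were 2-fold lower (RAB9B and RAB12), 3.33% each way, against 5.32% and 5.53% of all genes. Among the 16 RAB genes above the 75th percentile on at least 1 array, none was past 2-fold, against 2.16% of all such genes, and 12 of the 16 had a ratio above 0, against 63.6% of all such genes.

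**Figure D1:**
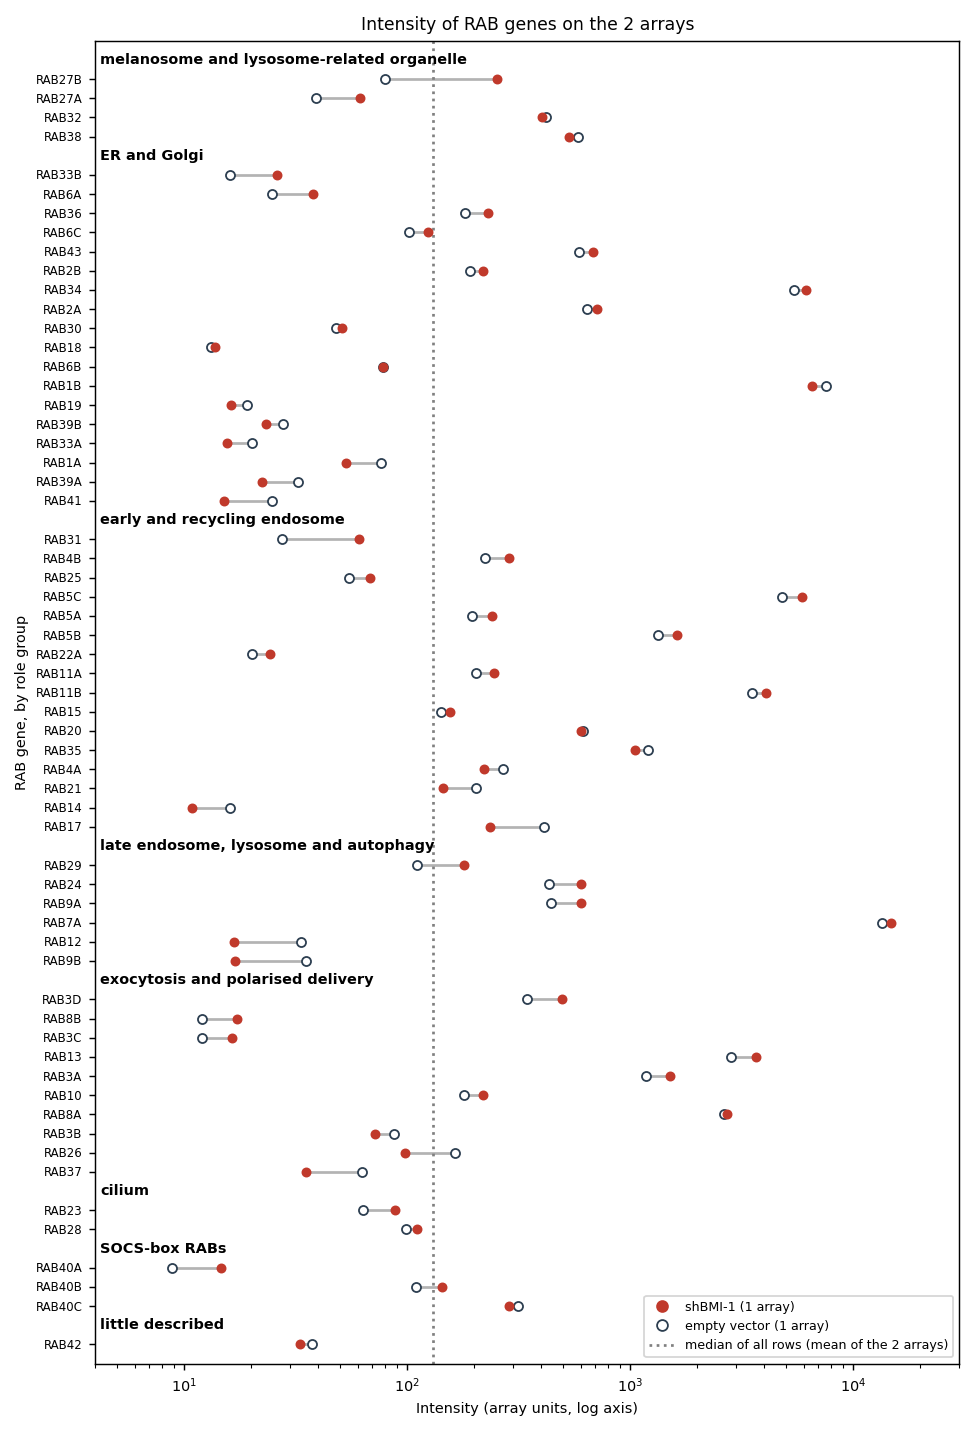
Intensity (array units, log axis) of each of the 60 RAB genes on the shBMI-1 array (filled) and the empty vector array (open), by role group, with the median of all rows dotted; genes with 2 rows are shown at the mean of their log2 values. The gap between the points of a gene is widest for RAB27B, at 253.2 with shBMI-1 and 79.7 with the empty vector, and only the points of 1 gene can be compared.

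The 4 RABs of the melanosome and related organelles gave different values. RAB27B, which serves the release of lysosome-related organelles and secretory granules, was at 253.2 with shBMI-1 and 79.7 with the empty vector. That is 3.17-fold higher, a log2 ratio of 1.67, where the row SD is 0.60. It was the highest ratio of the family. RAB27A, its close paralogue and the melanosome carrier in skin, was at 61.5 with shBMI-1 and 38.9 with the empty vector, both under the limit. Its log2 ratio of 0.66 was within the row SD of 0.80 for that level. RAB32 was at 403.9 with shBMI-1 and 419.6 with the empty vector, a ratio of -0.06. RAB38, the gene mutated in the chocolate mouse, was at 532.3 with shBMI-1 and 582.8 with the empty vector, a ratio of -0.13. Both differences were smaller than the row SD (0.42 for RAB32 and 0.30 for RAB38). RAB32 and RAB38, which share the same exchange factor, thus differed by less than that spread, while the RAB27 pair was higher with shBMI-1 in both genes, with RAB27B alone beyond the spread.

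The exchange factor of RAB32 and RAB38 is BLOC-3, made of HPS1 and HPS4. HPS1 was at 548.1 with shBMI-1 and 701.8 with the empty vector (ratio -0.36, row SD 0.30), and HPS4 was at 177.9 and 118.5 in that order (0.59, row SD 0.60). ANKRD27, also called VARP, which binds both RABs, had a ratio of 0.41, within its row SD of 0.60. HPS3, a subunit of BLOC-2, which RAB32 and RAB38 bind on the way to the melanosome, was at 150.0 with shBMI-1 and 27.8 with the empty vector, 5.39-fold higher, and the lower value was dim. Its partners HPS5 and HPS6 had ratios of 0.13 and 0.39. HPS3, with a row SD of 0.76, passed the limit on the shBMI-1 array alone, as did HPS4. No contrast among the 3 subunits of BLOC-2 is therefore read.

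Of the RAB27 partners, the exchange factor MADD was at 4524 with shBMI-1 and 4271 with the empty vector, a ratio of 0.08. TBC1D10A, a GAP that acts on RAB27A, was at 1762 with shBMI-1 and 1074 with the empty vector, 1.64-fold higher with a row SD of 0.25. The effector SYTL5, of the synaptotagmin-like family that binds RAB27, was at 374.3 with shBMI-1 and 234.9 with the empty vector (0.67, row SD 0.42). The paralogue of TBC1D10A, TBC1D10B, was at 669.8 with shBMI-1 and 617.7 with the empty vector (0.12, row SD 0.30). TBC1D10A and SYTL5 thus stood beyond the row SD, and MADD and TBC1D10B did not.

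The effector SYTL4 was at 138.1 and 181.8 in the same order (-0.40, row SD 0.60). The other RAB27 effectors listed were dim, and their ratios had both signs. RPH3AL was at 36.9 with shBMI-1 and 80.3 with the empty vector (-1.12, row SD 0.80), and RPH3A at 13.6 and 17.3 (-0.36, row SD 0.59). MYRIP, the link of RAB27A to myosin VIIa, was at 42.8 with shBMI-1 and 11.5 with the empty vector (1.89, row SD 0.74). SYTL1 was at 44.9 and 20.2 in that order (1.15), EXPH5 at 108.0 and 69.0 (0.65), UNC13D at 36.4 and 25.3 (0.52), and SYTL3 at 20.8 and 22.4 (-0.11). The melanosome bridge genes MLPH, at 41.4 with shBMI-1 and 47.2 with the empty vector (-0.19), and MYO5A, at 58.9 and 48.9 (0.27), were within the row SD of 0.80.

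MITF, the regulator of the pigment cell programme, was at 72.8 with shBMI-1 and 32.0 with the empty vector (ratio 1.19), and the melanosome matrix gene PMEL was at 51.8 and 22.5, 2.30-fold higher. Both lay under the brightness limit with a row SD of 0.80. The pigment genes TYR (-0.07), TYRP1 (-0.01) and MLANA (0.04) were dim, with ratios near 0. Of the other pigment genes listed, also under the limit, the transporter gene SLC45A2 was at 99.0 with shBMI-1 and 56.4 with the empty vector (0.81, row SD 0.76), GPR143 had a ratio of 0.21 and OCA2 one of 0.02.

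**Figure D2:**
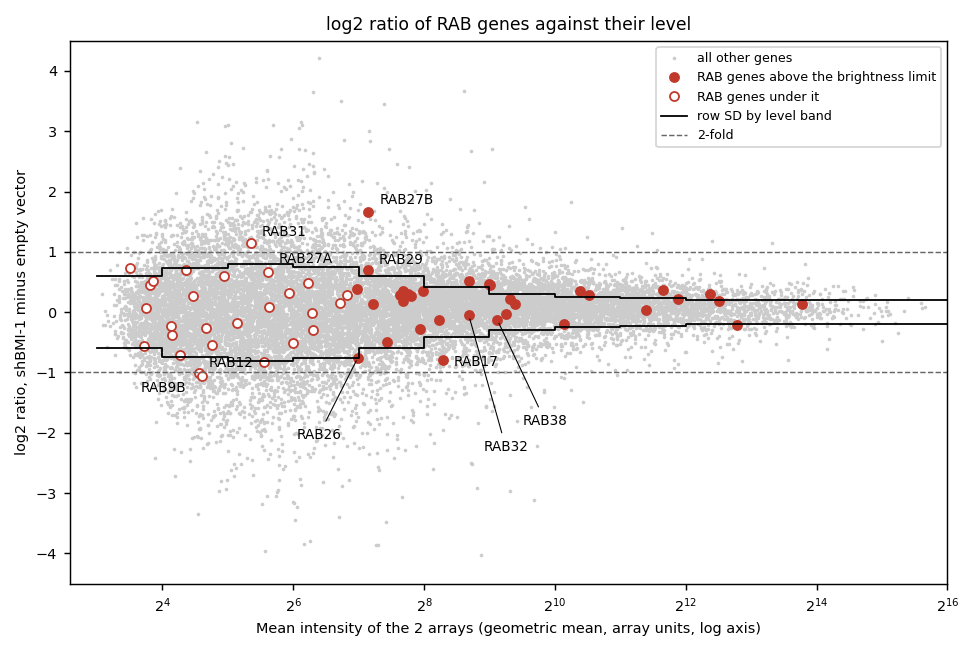
The log2 ratio of each RAB gene (shBMI-1 minus empty vector) against its mean intensity on a log axis, with all other genes in grey, the row SD per level band as lines and 2-fold dashed; open points are RAB genes under the brightness limit. RAB27B (1.67) is the only filled point past 2-fold, RAB31, RAB9B and RAB12 pass it at dim levels, and RAB32 and RAB38 lie near 0.

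The RABs of the endoplasmic reticulum and the Golgi apparatus, 18 genes, had 6 above the limit, with a median of 0.19. Of these 5 had a ratio above 0, beside 60.0% of all genes above the limit. RAB1B, which acts in transport from the endoplasmic reticulum to the Golgi, was at 6538 with shBMI-1 and 7536 with the empty vector, a ratio of -0.21 against a row SD of 0.20. Its paralogue RAB1A was dim, at 53.2 and 76.1 in that order (-0.52). RAB34, a Golgi and cilium RAB, was at 6177 with shBMI-1 and 5446 with the empty vector (0.18), within its row SD of 0.20. Of this group RAB1B alone was the one above the limit and lower with shBMI-1.

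RAB2A (0.14), RAB2B (0.19), RAB43 (0.22) and RAB36 (0.35) completed those above the limit, each within its row SD. RAB6A, a Golgi exit RAB, was at 37.8 with shBMI-1 and 24.9 with the empty vector (0.61), RAB6B at 78.0 and 78.4 (-0.01, with the sign turned by median centring, quantile and loess normalization), and RAB6C, a retrogene copy of RAB6A, at 124.7 and 102.0 (0.29). RAB6A and RAB6C are close copies, and their rows may not separate them. The other dim genes of the group (RAB18, RAB19, RAB30, RAB33A, RAB33B, RAB39A, RAB39B and RAB41) ran from -0.71 for RAB41 to 0.69 for RAB33B, all within the row SD.

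Early and recycling endosome RABs were 16 genes, 12 above the limit, with a median of 0.18. Of these 7 had a ratio above 0 and 5 below, beside 60.0% of all genes above 0. The 3 RAB5 paralogues, which control fusion of early endosomes, gave nearly the same ratio. RAB5C was at 5893 with shBMI-1 and 4781 with the empty vector (0.30, row SD 0.20). RAB5B was at 1628 with shBMI-1 and 1339 with the empty vector (0.28, row SD 0.25), and RAB5A at 240.1 and 195.0 (0.30, row SD 0.60). Each RAB5 gene was thus 1.22- to 1.23-fold higher with shBMI-1, and the 2 brighter ones were beyond their row SD. After quantile or loess normalization the ratio of RAB5B was 0.20, under that row SD.

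The recycling RABs RAB11B, at 4080 with shBMI-1 and 3512 with the empty vector (0.22), and RAB11A, at 245.4 and 203.8 (0.27), were within theirs. The rapid recycling pair differed in sign: RAB4A was at 222.4 with shBMI-1 and 269.0 with the empty vector (-0.27), and RAB4B at 285.2 and 223.8 (0.35), each within a row SD of 0.60. No recycling RAB of these 4 therefore stood beyond the row SD.

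The lowest ratio above the limit in the whole family was that of RAB17, an epithelial recycling RAB that also acts in melanocyte filopodia. It was at 236.8 with shBMI-1 and 411.7 with the empty vector, 1.74-fold lower, a ratio of -0.80 with a row SD of 0.42. RAB21, which traffics integrins, was at 145.2 with shBMI-1 and 204.7 with the empty vector (-0.50, row SD 0.60), and RAB35 at 1051 and 1201 (-0.19, row SD 0.25). Only RAB17 of these lay beyond its row SD, although RAB35 was at -0.28 after quantile or loess normalization, past 0.25.

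RAB20 (-0.03) and RAB15 (0.13) were near 0. Under the limit, RAB31, which acts between the trans-Golgi network and endosomes, was at 60.8 with shBMI-1 and 27.6 with the empty vector, 2.20-fold higher, where the row SD is 0.80. RAB14 (-0.56), RAB22A (0.27) and RAB25 (0.32) were dim on both arrays and within the row SD.

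The late endosome, lysosome and autophagy group had 4 of 6 genes above the limit, all with a ratio above 0, beside 60.0% of all genes above the limit, and a median of 0.46. With 4 genes, of which RAB29 passed the limit on the shBMI-1 array alone, nothing more is read from that count. RAB7A, which governs fusion with lysosomes, was at 14739 with shBMI-1 and 13473 with the empty vector, a ratio of 0.13 with a row SD of 0.20. RAB9A, of the route from endosomes back to the Golgi, was at 600.5 with shBMI-1 and 440.7 with the empty vector (0.45, row SD 0.30). RAB24, linked to autophagy, was at 602.7 and 434.0 (0.47, row SD 0.42), and its 2 rows were both above 0, at 0.63 and 0.32. RAB9A and RAB24 were thus beyond their row SD and RAB7A was not. After loess normalization RAB24 was at 0.40, under its row SD.

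RAB29, a regulator of the Parkinson kinase LRRK2, was at 180.4 with shBMI-1 and 110.6 with the empty vector. The ratio of 0.71, with a row SD of 0.60, was the second highest of the family above the limit. RAB29 passed that limit on the shBMI-1 array alone. The dim members went the other way. RAB9B was at 17.0 with shBMI-1 and 35.2 with the empty vector (-1.05), and RAB12, which acts in the degradation of the transferrin receptor, at 16.7 and 33.6, 2.01-fold lower, where the row SD is 0.74. RAB9A and its paralogue RAB9B therefore had ratios of opposite sign, the second from dim values.

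Among the 10 RABs of exocytosis and polarised delivery, 6 were above the limit, and the median was 0.32. Of these 5 had a ratio above 0, beside 60.0% of all genes above the limit. RAB3D, of regulated secretion, was at 493.8 with shBMI-1 and 344.3 with the empty vector (0.52, row SD 0.42). RAB3A, of synaptic and other dense vesicles, was at 1517 with shBMI-1 and 1184 with the empty vector (0.36, row SD 0.25), and RAB13, of tight junction and leading edge traffic, at 3672 and 2843 (0.37, row SD 0.23). These 3 were beyond the row SD.

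RAB8A, of transport to the plasma membrane and the cilium, was at 2712 with shBMI-1 and 2649 with the empty vector, a ratio of 0.03 that was -0.05 after quantile and -0.04 after loess normalization. RAB10 (0.29) was within its row SD. RAB26, of secretory granule maturation, was at 97.8 with shBMI-1 and 165.0 with the empty vector, a ratio of -0.75 with a row SD of 0.76. The dim genes were RAB3B (-0.29), RAB3C (0.45), RAB8B (0.51) and RAB37, at -0.83 against a row SD of 0.80, whose 2 rows were at -1.05 and -0.61. RAB3B was thus the 1 of the 4 RAB3 genes with a ratio under 0.

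The remaining groups were small. The SOCS-box RABs, which serve in ubiquitin ligases, gave 0.39 for RAB40B (row SD 0.76), -0.13 for RAB40C (row SD 0.42) and 0.74 for the dim RAB40A, at 14.7 with shBMI-1 and 8.83 with the empty vector. RAB23, a regulator of hedgehog signalling, had a ratio of 0.49 and RAB28, a photoreceptor cilium RAB, one of 0.16, both under the limit. The 2 RAB28 rows both had a ratio of 0.16 but differed in brightness. One was above the limit, at 294.4 with shBMI-1 and 263.2 with the empty vector, and the other was at 41.9 and 37.6, so RAB28 is under the limit through the mean of its rows, and with the brightest row of each gene 34 RAB genes passed. RAB42 was dim, with a ratio of -0.18. None of these stood beyond its row SD apart from RAB40A, with a row SD of 0.59.

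Read against the row SD at their own level, 9 of the 33 RAB genes above the limit (27.3%) were higher with shBMI-1 by more than it, against 22.7% of all genes above the limit. They were RAB27B, RAB29, RAB3D, RAB24, RAB9A, RAB13, RAB3A, RAB5C and RAB5B. Of these, RAB27B and RAB29 passed the limit on the shBMI-1 array alone. Lower by more than the row SD were 2 of 33 (6.06%), RAB17 and RAB1B, against 13.4% of all genes. RAB1B exceeded its row SD by less than 0.01. After loess normalization RAB5B (0.20) and RAB24 (0.40) were under the row SDs of the deposited values, and RAB35 (-0.28) was beyond it. After loess normalization the counts were 7 higher and 4 lower, and with median centring 10 higher and 1 lower. The shares of all genes under these settings are not given, so nothing is read from those counts.

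**Figure D3:**
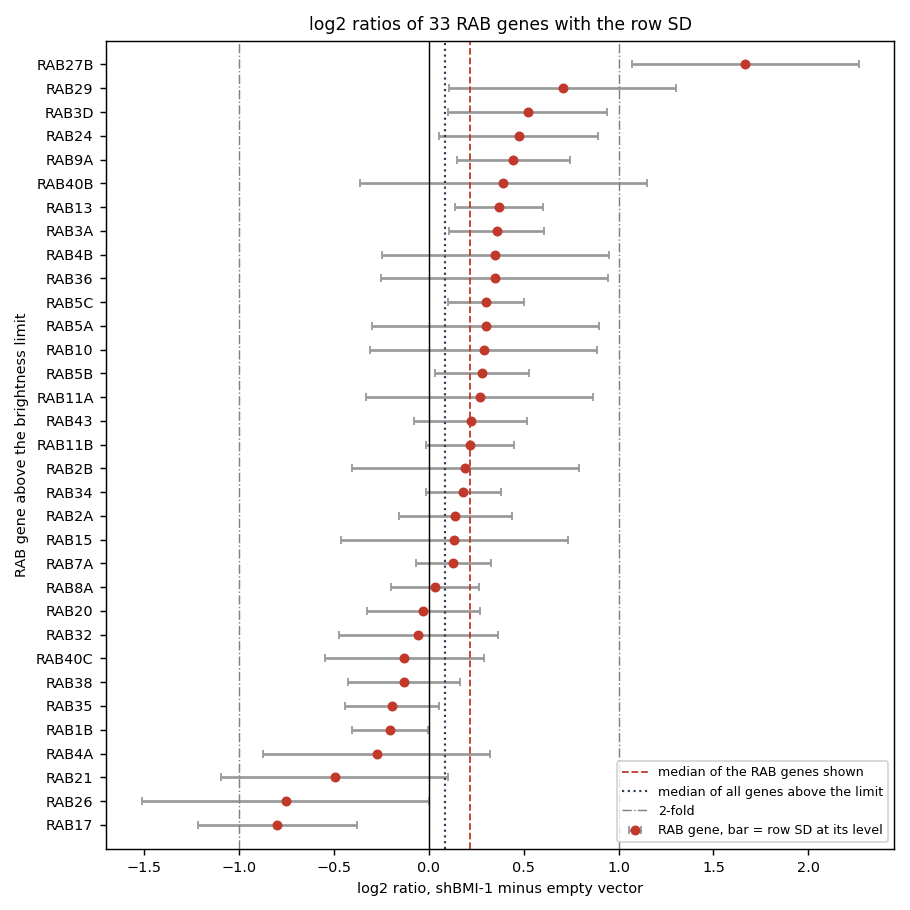
The log2 ratio (shBMI-1 minus empty vector) of the 33 RAB genes above the brightness limit, ordered by ratio, with a bar of 1 row SD at the gene's level on each side. The dashed line is their median of 0.22, the dotted line the median of all genes above the limit, 0.09; only the bar of RAB27B lies wholly past 2-fold.

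The genes that act on RABs were compared next. Of the prenylation and recycling genes, 5 of 6 passed the limit, with a median of -0.09. None was past 2-fold, against 3.23% of all genes higher and 3.55% lower. The sign of that median depends on the limit: it was 0.14 at the 75th percentile or when the mean of both arrays had to pass, and the mean of the 5 ratios was 0.0079. The subunits of the RAB geranylgeranyl transferase were both higher with shBMI-1: RABGGTA was at 2149 with shBMI-1 and 1561 with the empty vector (0.46), and RABGGTB at 1444 and 1115 (0.37), each with a row SD of 0.25. GDI2, which extracts RABs from membranes, was at 1139 with shBMI-1 and 1328 with the empty vector (-0.22), within its row SD of 0.25. RABIF (-0.48, row SD 0.76) and RABAC1 (-0.09) were within theirs, and RABIF passed the limit on the empty vector array alone. The escort protein gene CHML was dim, at 29.8 with shBMI-1 and 50.4 with the empty vector.

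Of 40 GEF genes on the arrays 27 passed the limit, with a median of 0.10, 17 above 0 and 10 below, beside 60.0% of all genes above 0. Past 2-fold were 2 in each direction, against 3.23% of all genes higher and 3.55% lower. But 3 of these 4 (GAPVD1, RAB3GAP2 and TRAPPC10) passed the limit only on the array where they were brighter, so nothing is read from that count. DENND5B, an exchange factor for RAB39, was at 1353 with shBMI-1 and 206.5 with the empty vector, and its paralogue DENND5A, which also binds RAB6, was at 996.9 and 681.7 (0.55, row SD 0.30). GAPVD1, an activator of RAB5, was at 301.8 with shBMI-1 and 106.4 with the empty vector, 2.84-fold higher with a row SD of 0.60. These 2 were the GEFs past 2-fold in the higher direction.

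RAB3GAP2, part of the complex that activates RAB18 and inactivates RAB3, was at 85.5 with shBMI-1 and 346.7 with the empty vector, 4.05-fold lower, while its partner RAB3GAP1 was dim, at 54.8 and 51.5 (0.09). TRAPPC10, a subunit of a TRAPP complex, which activates RAB1 or RAB11 according to its form, was at 43.1 with shBMI-1 and 176.9 with the empty vector, 4.10-fold lower. The core TRAPP subunits TRAPPC1 (-0.0045), TRAPPC2 (-0.13), TRAPPC3 (-0.20) and TRAPPC4 (0.25) differed by no more than 0.25 on the log2 scale, TRAPPC4 beyond its row SD of 0.23. TRAPPC9, which shares a complex form with TRAPPC10, was at 434.1 with shBMI-1 and 342.0 with the empty vector (0.34, row SD 0.42). Each of the 4 GEFs past 2-fold was measured by 1 row.

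The other RAB5 exchange factors went both ways: RABGEF1 was at 121.7 with shBMI-1 and 225.6 with the empty vector (-0.89, row SD 0.60), RIN1 at 238.3 and 407.1 (-0.77, row SD 0.42) and RIN3 at 762.6 and 616.5 (0.31, row SD 0.30). RIN2 was dim (-0.13). The endosomal effectors RABEP1, which binds RAB4 and RAB5, at 74.9 with shBMI-1 and 141.9 with the empty vector (-0.92, row SD 0.76), and RUFY1, which binds RAB4, at 312.5 and 500.1 (-0.68, row SD 0.42), were lower by more than the row SD. RABGEF1 and RABEP1 passed the limit on the empty vector array alone, so the filter itself depended on their difference. RABEP2 had a ratio of 0.18, and the RAB5 tether EEA1 was dim (-0.34). The 3 RAB5 genes themselves had ratios of 0.28 to 0.30. The exchange factors RIN1 (-0.77) and RIN3 (0.31), which passed the limit on both arrays, covered a wider range than the RAB5 genes.

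For RAB7A, the subunits of its exchange factor gave 0.33 for MON1B (row SD 0.25), 0.14 for MON1A and 0.15 for CCZ1. The effectors RILP (-0.44, row SD 0.60) and PLEKHM1 (0.44, row SD 0.42) had opposite signs, and TBC1D15, a GAP for RAB7, was at 231.4 with shBMI-1 and 120.6 with the empty vector (0.94, row SD 0.60). TBC1D15 passed the limit on the shBMI-1 array alone. RAB7A itself was at 0.13.

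Of the GAPs, 22 of 30 passed the limit, 17 with a ratio above 0 and 5 below, beside 60.0% of all genes above 0, and the median was 0.24. TBC1D9 was the 1 of the 22 past 2-fold and passed the limit on the empty vector array alone. It was at 65.0 with shBMI-1 and 136.4 with the empty vector, 2.10-fold lower. RAB3GAP2, which also belongs to a GAP complex for RAB3, was counted with the GEFs and not here. It was 4.05-fold lower with shBMI-1, a larger difference than that of TBC1D9, and it too passed on the empty vector array alone. Above the limit, the largest positive ratios after that of TBC1D15 were those of SGSM3 (0.72, row SD 0.30), TBC1D10A (0.71) and TBC1D22B (0.69, row SD 0.76). TBC1D15 and TBC1D22B passed the limit on the shBMI-1 array alone. Under it, TBC1D10C was at 89.1 with shBMI-1 and 27.8 with the empty vector (1.68), and TBCK was 2.29-fold higher. Of the effectors, 22 of 42 passed the limit, 13 above 0 and 9 below, with a median of 0.15 and none past 2-fold. Among these 22, RABEP1, RUFY1, SYTL5 and RAB11FIP4 (0.55, row SD 0.60) had the largest ratios in size. Larger ones stood under the limit. MYRIP and SYTL1 were higher with shBMI-1, while RPH3AL was 2.17-fold lower, RIMS1 2.29-fold lower and RAB11FIP2 2.22-fold lower. Of the melanosome genes 15 of 26 passed, 10 above 0 and 5 below, with a median of 0.13. HPS3 was the 1 past 2-fold, and it passed the limit on the shBMI-1 array alone. BLOC1S2, of the BLOC-1 complex of melanosome sorting, came after HPS4 with a ratio of -0.50 (row SD 0.42). All these medians are to be read beside the 0.09 of all genes. The counts above 0 stand beside 60.0% of all genes, and those past 2-fold beside 3.23% higher and 3.55% lower.

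**Figure D4:**
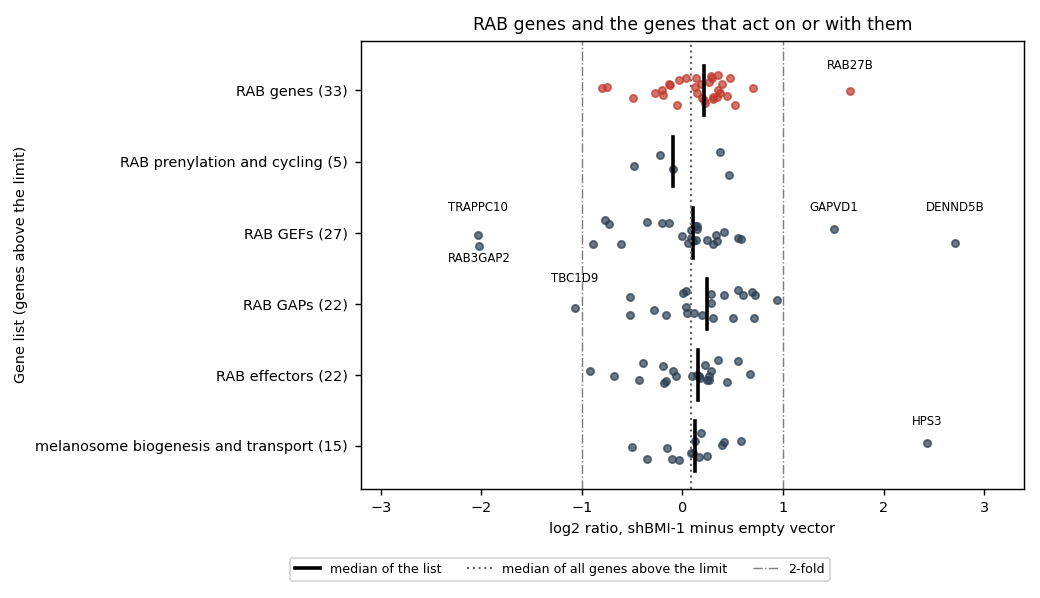
The log2 ratio (shBMI-1 minus empty vector) of each gene above the brightness limit among RAB genes and 5 lists of genes that act on or with them, 1 point per gene, spread vertically for legibility, with the number of genes in brackets and genes past 2-fold named. The black bars are the list medians, from -0.09 for prenylation and cycling (0.14 with the limit on the mean of both arrays) to 0.24 for the GAPs, and the dotted line is the median of all genes above the limit, 0.09; HPS1, HPS4 and ANKRD27 stand in 2 lists.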

How the data were processed

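RNA of 1 culture with the BMI1 hairpin and 1 with the empty lentivirus was measured on 1 single-colour array each. The deposited values are linear intensities, 1 per row and array, and all were above 0. Per the labels' protocols, oligo-dT primed double-stranded cDNA was labelled with Cy3 and hybridised to NimbleGen arrays. For the scanner software, the joining of probes into rows, the normalization and detection calls, the entry is: not given in the sources used here. Groups came from the sample titles.

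Rows were named by the platform's annotation table. Values were taken as log2 with no pseudocount, and rows of one symbol were averaged. The brightness limit was the median of all rows, to be reached on at least 1 array. For the row SD, genes with several rows were taken, and the SD of their log2 ratios within each gene was pooled in level bands 1 log2 unit wide. It describes the spread between rows of a pair of arrays and is not a replicate error.

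With 1 array per group no test was made and no p-value is given. The number of arrays limits the precision. The members and the lists were chosen with earlier results of these data known. Named in full were RAB27A, RAB27B, RAB32, RAB38, every RAB gene past 2-fold, the 6 highest and 6 lowest ratios and the 8 brightest genes above the limit, the extremes of each role group and paralogue sets. From each list of partner genes the text names those past 2-fold and up to 4 with the largest ratios, and further partners of a named RAB for their known role. The procedure was tested on simulated data. The simulated differences lay in bright genes only, with noise smaller than the row SD, so that test does not bear on calls at dim levels. Alternatives were median centring, quantile and loess normalization (span 0.3, 3 iterations), the brightest row of a gene, a pseudocount of 50, other brightness limits, one of them on the mean of both arrays, thresholds of 1.5-fold and 3-fold, and means. Python 3.11.15, numpy 2.4.6, pandas 2.3.3, statsmodels 0.14.6 and matplotlib 3.10.9 were used.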

Additional observations from a re-analysis of the deposited data

How the results depend on the processing

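With a limit at the 75th percentile, 16 RAB genes were left and 0 of them were 2-fold higher, against 1.04% of all such genes. With no limit, 2 of 60 were 2-fold higher and 2 lower, against 5.32% and 5.53% of all genes. With a 1.5-fold threshold 2 of 33 were higher and 2 lower, against 10.1% and 8.45% of all genes above the limit. The count lower by more than the row SD, 2 as given, was 1 with median centring or at the 75th percentile, 4 after loess normalization and 5 with no limit. The matching shares of all genes are not given, so nothing is read from these counts. The prenylation median was 0.14 at the 75th percentile and with the limit on the mean of both arrays; the means of the GEF and effector lists were 0.0042 and 0.0332. The limit applied to the mean intensity and the alternatives for the lists and the row SD counts were chosen after seeing the data. The RAB median was above that of all genes by 0.10 to 0.14 over all alternatives run. Median centring and the fold thresholds cannot change that difference. All 130 values run for RAB genes (26 genes under 5 settings) moved by less than the row SD. Part of that count was fixed in advance. The brightest row cannot move a gene that has 1 row, and median centring moves every gene by the same small amount. Over the 5 settings the sign turned for 2 of all 60 RAB genes (RAB8A and RAB6B). It also turned for 9 of 162 list and marker genes, TRAPPC1 and TYRP1 among them. All of these had ratios of at most 0.13 in size. With a pseudocount of 50 the ratio of RAB27B was 1.22 and stayed past 2-fold, and that of RAB31 was 0.51, of RAB9B -0.35 and of RAB12 -0.32, short of it. No paired analysis was possible because each group has 1 array. Values at dim levels are limited by an unknown background.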
